A study of Mus musculus with 12 samples.

Results

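Transcripts of 6 genes of cytotoxic granules and NK receptors were followed in T cells answering a strong or a weak peptide. The genes were Klrd1, Klrk1, Gzma, Gzmb, Gzmk and Prf1. Every probe set whose only gene symbol in the array's annotation is one of these names was taken, which gave 7 probe sets of the 22690 on the array and 6 of the 12393 genes with a probe set of 1 symbol. Prf1 had 2 probe sets and each other gene had 1. The genes were taken by name, and 4 of their probe sets, for the 3 genes Klrd1, Gzma and Prf1, lay above the level needed for testing.

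The cells came from 5CC7 mice, which carry a T cell receptor transgene against a moth cytochrome c peptide. They were moved into B10.A mice, which were then given MCC or 102S peptide in PBS through the tail vein, at 2 µg or 0.2 µg. MCC is the strong agonist and 102S the weak one, an altered form of MCC that carries a serine in place of a threonine. After 48 h the nodes were pooled, the 5CC7 cells were sorted by FACS, and RNA was run on 3 arrays for each of the 4 groups. All 4 groups received peptide, and unstimulated cells were not analysed here. The sort gate and the ages and sexes of the mice are not given in the sources used here, and each node pool can hold several animals.

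NK receptors and cytotoxic granules are best known from NK cells and CD8 T cells, and both also occur in some CD4 T cells. The protein of Klrd1 is CD94, which pairs with NKG2 chains of the Klrc genes into receptors for the non-classical class I molecule Qa-1, while Klrk1 encodes NKG2D, which signals through the adaptors of Hcst and Tyrobp. When a killer cell meets its target, perforin, the product of Prf1, makes pores through which granzymes, the serine proteases of the Gzm genes, enter and cleave proteins of the target cell.

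In these T cells Klrd1 stood apart from the other genes of the set. Its log2 level was lowest with 2 µg MCC, followed by 0.2 µg MCC, 2 µg 102S and 0.2 µg 102S, and no array of one group reached the next. Gzma was lower with MCC than with 102S at 2 µg, and Prf1 was lower with MCC at 0.2 µg. Klrk1, Gzmb and Gzmk stayed at the low end of the array's range in all 4 groups and were not tested. No gene of the set was called higher with MCC, or higher with the larger dose.

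**Figure D1:**
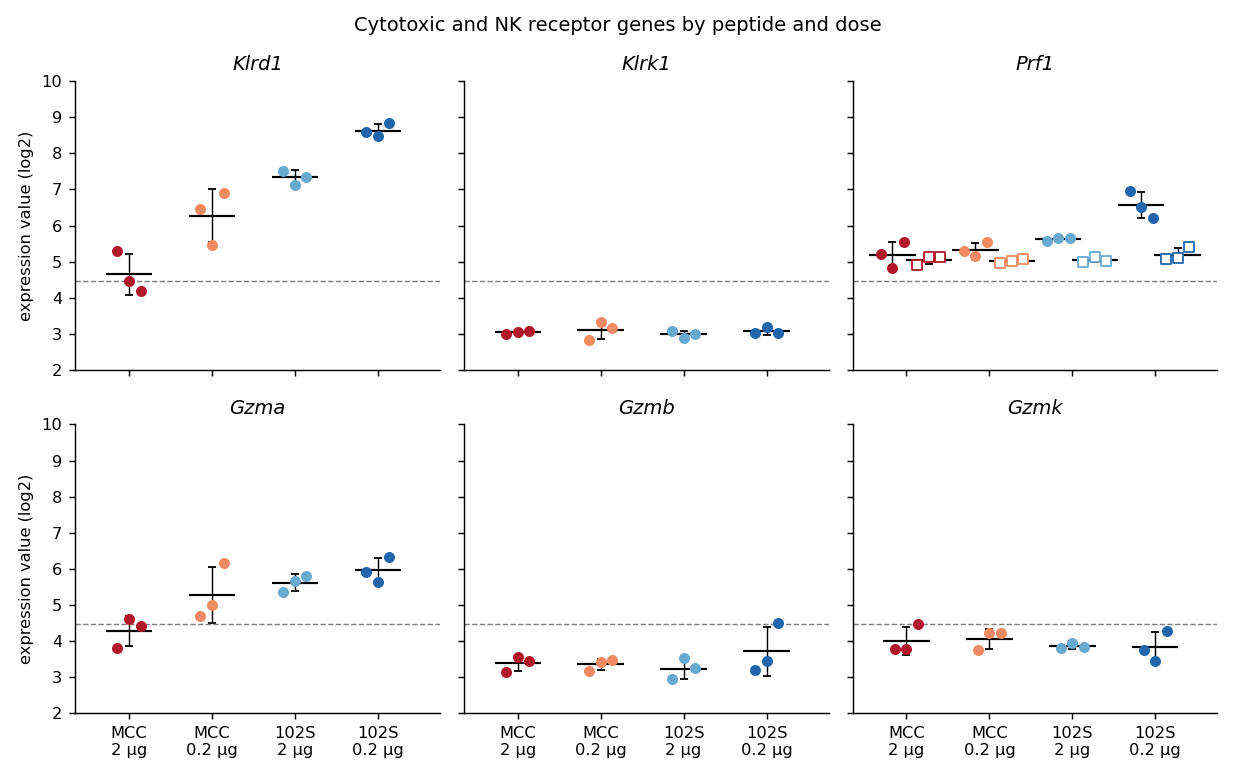
Log2 expression value of each of the 6 genes on each array, by peptide and dose. Points are arrays, horizontal lines are means of 3 arrays and bars are SD. The dashed line is the level of 4.47 log2 under which a probe set was not tested, and open squares are the second probe set of Prf1. Klrd1 climbs from left to right, Gzma and filled Prf1 points climb less, and Klrk1, Gzmb and Gzmk lie near or under the line.

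The 12 arrays were similar in scale, with medians between 5.16 and 5.25 log2 and with correlations between replicates of a group from 0.977 to 0.995. Sex-linked transcripts set replicate 1 of every group apart: Xist, which female cells express, lay between 11.72 and 12.27 log2 on these 4 arrays and between 4.05 and 5.10 on the other 8, and the Y-linked Eif2s3y lay between 3.31 and 4.26 on the former and 8.75 and 9.37 on the latter. Each result below was therefore also computed on replicates 2 and 3 alone. The excess of the 3′ over the 5′ β-actin control, a sign of RNA quality, was 0.63 ± 0.12 log2 (SD, n = 3) with 2 µg MCC, 1.62 ± 0.81 with 0.2 µg MCC, 1.24 ± 0.41 with 2 µg 102S and 1.33 ± 0.88 with 0.2 µg 102S. Nothing in the labels says that replicates were separate animals, so the p-values given here reflect the scatter of these arrays. Replicate 1 had another source than replicates 2 and 3 by these transcripts, and the scatter between the latter may be technical. In bulk RNA fewer cells carrying a transcript and less transcript per cell cannot be told apart.

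The 6 genes lie in 4 chromosomal neighbourhoods. In the RefSeq gene table of assembly GRCm38.p6, Klrd1 lies on chromosome 6 between Klre1 and Klrk1, and Gzma on chromosome 13 between Gpx8 and Gzmk, so that each has another gene of the set as its direct coding neighbour. Gzmb lies on chromosome 14 beside Gzmc, and Prf1 on chromosome 10 between Adamts14 and Pald1. Neighbours did not share levels: Klrd1 varied over the 4 groups while Klrk1 stayed low, and Gzma varied while Gzmk stayed low.

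The table of RefSeq promoters matched 5 of the 6 genes, all but Klrd1. The bases just upstream of the annotated start are shown for Gzma and Prf1, which varied with the peptide, and for Gzmb, a granule gene that stayed low, so that the same letters can be compared. Capitals mark matches to the core of the Runx site, TGTGGT, and to the AP-1 site, TGANTCA, read on either strand. A match on the opposite strand appears as its reverse complement. The windows are Gzma at chr13:113100982-113101231 on the minus strand, Gzmb at chr14:56262335-56262584 on the minus strand and Prf1 at chr10:61297586-61297750 on the plus strand, all in GRCm38.p6 and written 5′ to 3′.
Gzma: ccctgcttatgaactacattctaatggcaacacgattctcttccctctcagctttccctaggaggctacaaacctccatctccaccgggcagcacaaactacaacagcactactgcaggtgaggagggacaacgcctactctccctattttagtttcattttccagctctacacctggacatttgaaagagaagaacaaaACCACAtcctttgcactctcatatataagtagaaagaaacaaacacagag
Prf1: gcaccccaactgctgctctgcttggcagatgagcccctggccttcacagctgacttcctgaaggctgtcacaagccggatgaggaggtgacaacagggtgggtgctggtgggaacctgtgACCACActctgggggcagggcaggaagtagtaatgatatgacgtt
Gzmb: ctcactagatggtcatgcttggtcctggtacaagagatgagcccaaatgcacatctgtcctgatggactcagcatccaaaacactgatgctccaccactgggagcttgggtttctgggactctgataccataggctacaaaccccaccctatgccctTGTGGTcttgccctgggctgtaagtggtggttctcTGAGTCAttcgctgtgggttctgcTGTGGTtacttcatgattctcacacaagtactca
Gzma held 1 Runx core, on the opposite strand, beginning 50 bases before the window's end. Prf1 also held 1 on the opposite strand, 45 bases before the end of its shorter window of 165 bases. Gzmb held 2 Runx cores, 93 and 34 bases before the end, with the AP-1 match TGAGTCA between them at 58 bases. Among 32851 promoters, a window of 250 bases held the Runx core in 14% and the AP-1 site in 6.75%, and a window of 165 bases held the Runx core in 9.52%. The window of Klrk1 also held a Runx core, as did 12.3% of windows of its length, and that of Gzmk held none. A cyclic AMP response element, TGACGTCA, and a T-box site, AGGTGTGA, were searched too and were in none of the 5 windows, against 1.55% and 1.12% of windows of 250 bases. The Runx core therefore occurred both in windows of genes that varied and in windows of genes that stayed low, while the AP-1 site occurred only in the window of Gzmb.

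Among the receptors, Klrd1 had the clearest order. With 2 µg MCC its log2 level was 5.29, 4.45 and 4.20 on the 3 arrays. With 0.2 µg MCC it was 6.45, 5.46 and 6.91. The lower dose of the strong peptide thus left more Klrd1 transcript on every array than the higher dose. With 2 µg 102S the level was 7.51, 7.13 and 7.35, and with 0.2 µg 102S it was 8.58, 8.46 and 8.84. The lowest array of any 102S group lay above the highest array of any MCC group, and the spread was wider with MCC (SD 0.57 and 0.74 log2) than with 102S (SD 0.19 at both doses).

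Klrd1 was lower with MCC than with 102S at both doses. At 2 µg the difference, MCC minus 102S, was -2.68 ± 0.34 log2 (SE, limma adjusted p = 0.000524). With 2 µg MCC 2 of the 3 arrays lay under 4.47 log2, where the array may no longer resolve lower amounts, so no fold is given for comparisons with that group. At 0.2 µg it was -2.36 ± 0.34 (limma adjusted p = 0.000592), or 5.12-fold lower. Both calls held in all 21 alternative settings, with differences between -3.01 and -2.46 at 2 µg and between -2.67 and -1.95 at 0.2 µg. On replicates 2 and 3 alone the differences were -2.91 and -2.47. The peptide effect did not differ detectably between the doses, with an interaction of -0.33 log2, a 95% interval from -1.38 to 0.72 and limma adjusted p = 0.841.

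The dose comparisons of Klrd1 were less firm. Within MCC, 2 µg minus 0.2 µg was -1.63 ± 0.34 log2 (limma adjusted p = 0.0347). That call was lost in 8 of 21 settings: with the 6 MCC arrays alone (adjusted p = 0.103), and without MCC 2 µg replicate 2 (0.111) or 3 (0.13), MCC 0.2 µg replicate 3 (0.163), 102S 2 µg replicate 2 (0.0562) or 3 (0.0583), or 102S 0.2 µg replicate 1 (0.0507) or 2 (0.0538), all from limma. On replicates 2 and 3 alone the difference was -1.86 (limma adjusted p = 0.0242). The call was also kept with the replicate block (limma adjusted p = 0.00487). Within 102S the difference was -1.30 log2, with a 95% interval from -2.04 to -0.56, and did not pass (limma adjusted p = 0.0663) although the arrays of the 2 doses did not overlap. It passed in 6 of 21 settings, among them with the 6 arrays of 102S alone (limma adjusted p = 0.011), with the β-actin covariate (0.0126), and without MCC 2 µg replicate 1 (0.0444), MCC 0.2 µg replicate 2 (0.0214) or MCC 0.2 µg replicate 3 (0.0417).

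Klrk1, the other receptor, stayed between 2.84 and 3.34 log2 on all 12 arrays. Its means were 3.04 ± 0.05 (SD, n = 3) with 2 µg MCC, 3.12 ± 0.25 with 0.2 µg MCC, 2.99 ± 0.09 with 2 µg 102S and 3.08 ± 0.10 with 0.2 µg 102S. The groups overlapped, and every array lay under the level needed for testing. When all probe sets were tested regardless of level, the difference between the peptides was 0.05 log2 at 2 µg and 0.04 at 0.2 µg, with limma adjusted p = 0.932 at both.

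Gzma, a granzyme that cleaves after basic residues, had log2 levels of 3.81, 4.61 and 4.42 with 2 µg MCC and of 4.70, 4.99 and 6.17 with 0.2 µg MCC. With 2 µg 102S they were 5.36, 5.68 and 5.81, and with 0.2 µg 102S 5.92, 5.64 and 6.33. The arrays with 2 µg MCC were the lowest of the 12, and the groups with 0.2 µg MCC and with either dose of 102S overlapped. The array with 6.17, replicate 3 of 0.2 µg MCC, also had the largest 3′ excess of β-actin in its group, 2.33 log2. Over the 12 arrays Gzma correlated with that difference at r = 0.701 and Klrd1 at 0.357. Prf1 correlated with it at 0.0894 with its brighter probe set and at 0.524 with the other. For the untested Klrk1, Gzmb and Gzmk r was 0.341, 0.616 and 0.553. These values describe arrays that share groups. Adding the β-actin difference as a covariate left the difference of Gzma between the peptides at 2 µg at -0.97 log2 (limma adjusted p = 0.00861). The covariate values for the other comparisons of Gzma stand beside them below. The part of RNA quality in the Gzma values was not tested otherwise.

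At 2 µg Gzma was lower with MCC by -1.34 ± 0.35 log2 (limma adjusted p = 0.0287). The mean with 2 µg MCC, 4.28 ± 0.42 (SD, n = 3), lay under the level needed for testing, where the array may no longer resolve lower amounts, so no fold is given. The call was lost in 6 of 20 settings: on replicates 2 and 3 alone (-1.23, limma adjusted p = 0.0695) and without MCC 2 µg replicate 1 (0.0994) or 3 (0.0698) or 102S 2 µg replicate 1 (0.0518), 2 (0.0861) or 3 (0.108). At 0.2 µg the difference was -0.68 log2 with a 95% interval from -1.43 to 0.07 and did not pass (limma adjusted p = 0.227). It passed without MCC 0.2 µg replicate 3, the array with 6.17 (-1.12, limma adjusted p = 0.0251), and with the β-actin covariate (-0.85, limma adjusted p = 0.0117).

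Between the doses of MCC, Gzma differed by -1.01 log2, with a 95% interval from -1.76 to -0.25, and did not pass (limma adjusted p = 0.17). Same-numbered replicates deviated together in this comparison, and with the replicate block the same difference passed (limma adjusted p = 0.0242). It also passed without MCC 0.2 µg replicate 1 (-1.30, limma adjusted p = 0.0417). With the β-actin covariate it shrank to -0.42 log2 (limma adjusted p = 0.443), and the 3′ excess of β-actin was 0.63 log2 with 2 µg MCC and 1.62 with 0.2 µg MCC. Between the doses of 102S the difference was -0.35 log2, from -1.10 to 0.40 (limma adjusted p = 0.808). The interaction of -0.66 log2 had an interval from -1.72 to 0.40 (limma adjusted p = 0.681) and was -0.13 with the β-actin covariate (limma adjusted p = 0.919), so a change of the peptide effect with dose was not detected.

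Gzmb encodes a protease that cleaves after aspartate and can start apoptosis, and Gzmk a relative of granzyme A. The mean of each over the 12 arrays lay under the level needed for testing. Gzmb lay between 2.94 and 4.49 log2 over the 12 arrays, and the 4.49, on replicate 3 of 0.2 µg 102S, was its only value above 4.47. The other arrays of that group had 3.21 and 3.44. The group means of Gzmb were 3.39 ± 0.22 (SD, n = 3) with 2 µg MCC, 3.36 ± 0.16 with 0.2 µg MCC, 3.24 ± 0.29 with 2 µg 102S and 3.72 ± 0.68 with 0.2 µg 102S. Gzmk lay between 3.45 and 4.46 log2, with means of 4.01 ± 0.39, 4.07 ± 0.28, 3.87 ± 0.08 and 3.84 ± 0.43 in the same order. In each comparison the groups overlapped for both genes, and without a filter neither passed in any of them (lowest limma adjusted p = 0.553 for Gzmb and 0.691 for Gzmk).

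Prf1 gave different results with its 2 probe sets. The brighter one read 5.22, 4.82 and 5.55 log2 with 2 µg MCC, 5.29, 5.17 and 5.53 with 0.2 µg MCC, 5.58, 5.65 and 5.65 with 2 µg 102S and 6.95, 6.51 and 6.22 with 0.2 µg 102S. The arrays of 0.2 µg 102S lay above all others, and the 6 MCC arrays overlapped. At 0.2 µg Prf1 was lower with MCC by -1.23 ± 0.22 log2 (limma adjusted p = 0.00231), a 2.35-fold lower value, and on replicates 2 and 3 alone by -1.02 (limma adjusted p = 0.0403). At 2 µg the difference was -0.43 log2, from -0.90 to 0.04, and did not pass (limma adjusted p = 0.256), although the groups did not overlap. The interaction was 0.80 log2, from 0.14 to 1.46, and did not pass across all probe sets (limma adjusted p = 0.454).

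Within 102S, 2 µg gave a lower Prf1 value than 0.2 µg by -0.93 ± 0.22 log2 (limma adjusted p = 0.035), or 1.91-fold. The call was lost in 11 of 21 settings, among them on replicates 2 and 3 alone (-0.72, limma adjusted p = 0.382), without any of the 3 arrays of 102S 2 µg (0.0981, 0.135 and 0.117), without replicate 1 (0.153) or 2 (0.104) of 102S 0.2 µg, and without MCC 2 µg replicate 1 (0.0573) or MCC 0.2 µg replicate 2 (0.0502). Within MCC the doses differed by -0.13 log2, from -0.60 to 0.33 (limma adjusted p = 0.76), and the sign turned without MCC 2 µg replicate 2 (0.05). The second probe set of Prf1 stayed between 4.90 and 5.42 log2, with means of 5.05, 5.02, 5.05 and 5.2 in the order used above. It passed in no comparison, and at 0.2 µg its difference was -0.18 log2, from -0.49 to 0.14 (limma adjusted p = 0.47). Why the probe sets differ was not tested, and the difference in Prf1 at 0.2 µg therefore rests on 1 of its 2 probe sets.

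**Figure D2:**
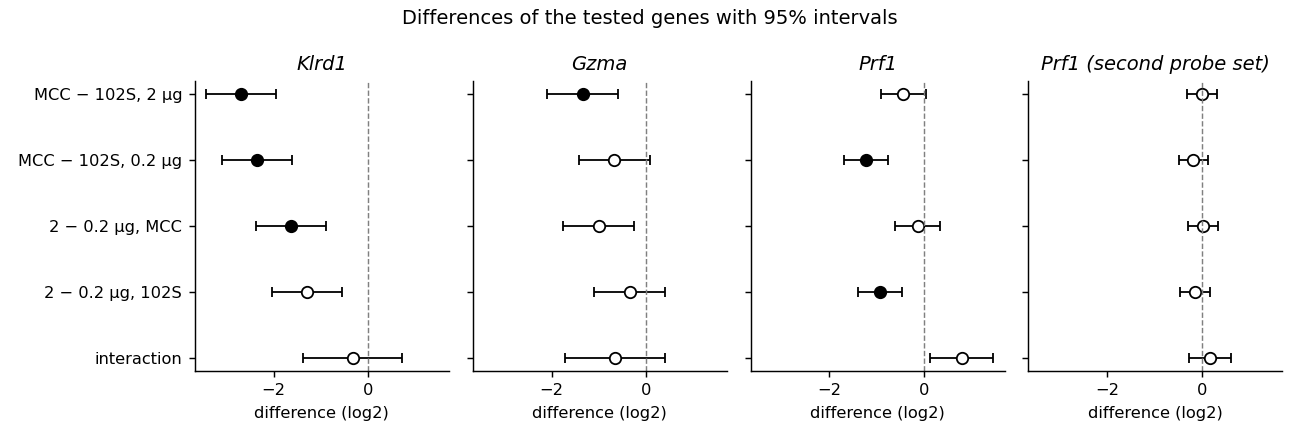
Differences on the log2 scale (horizontal axis) in the 5 comparisons (vertical axis) for the 4 probe sets tested, with 95% intervals from the limma fit. Filled points passed at an adjusted p under 0.05 and open points did not. Klrd1 lies left of 0 in the first 4 comparisons, and the second probe set of Prf1 lies at or near 0 in every one.

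Read against all 13576 probe sets tested, the set was small. At 2 µg, 2 of its 3 tested genes were lower with MCC and 0 higher, where 6.22% of all probe sets were lower and 4.04% higher. At 0.2 µg 2 of 3 were lower and 0 higher, against 6.45% and 7.84%. Within MCC 1 of 3, Klrd1, was lower with the higher dose, against 1.05% of probe sets lower and 0.707% higher. Within 102S 1 of 3, Prf1, was lower with the higher dose, against 0.508% lower and 2.65% higher. None of the 3 was called in the interaction, against 0.692% of probe sets lower and 0.0737% higher. The median differences over all tested probe sets were -0.04, -0.04, -0.01, 0.00 and -0.02 log2 in the same order of comparisons.

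Over the 12 arrays Klrd1 correlated with Gzma at r = 0.82 and with Prf1 at 0.812, and Gzma with Prf1 at 0.63. Klrk1, Gzmb and Gzmk correlated with Klrd1 at -0.0851, 0.228 and -0.308. The arrays share their groups, so these values restate the group differences and carry no test. The tested genes most like Klrd1 over the 12 arrays were Actn2, an actin cross-linker (r = 0.985), Dph5, an enzyme of diphthamide synthesis (0.979), and Luc7l, a splicing factor (0.977). Actn2 had means of 4.30, 5.30, 5.99 and 6.73 log2 from 2 µg MCC to 0.2 µg 102S, the same order of groups as Klrd1, and was lower with MCC at 2 µg by -1.70 ± 0.23 and at 0.2 µg by -1.43 ± 0.23 (limma adjusted p = 0.000749 and 0.00129). Dph5 spanned less, from 7.37 to 8.49, and Luc7l from 7.02 to 7.69. Most like Gzma were H2ac19 (r = 0.952), Aldoa (0.948) and Dnajc8 (0.943), and most like Prf1 were Rassf1 (0.95), Tuba1a (0.925) and Sipa1l2 (0.922). No tested gene of the set was among the 3 most like another. Klrk1, Gzmb and Gzmk could not be, since only tested genes were ranked. The tested genes most like Klrk1 were Mgst3 (0.81), Aarsd1 (0.773) and Aldh3b1 (0.723). For Gzmb they were Hey1 (0.939), H1f6 (0.913) and Tbxas1 (0.905), and for Gzmk Hamp2 (0.96), Fbxo36 (0.943) and Gnao1 (0.937).

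Of the partners of the 2 receptors measured here, only Hcst was tested. The Klrc genes were too low to show whether they followed Klrd1. Klrc1, Klrc2 and Klrc3, which encode NKG2 chains that pair with CD94, lay between 2.66 and 3.21, 2.34 and 2.85, and 2.26 and 2.95 log2, all under the level needed for testing. Hcst, the adaptor of NKG2D, was well above it. Its level was 9.02, 9.19 and 8.73 with 2 µg MCC, 9.20, 9.94 and 9.96 with 0.2 µg MCC, 10.11, 10.39 and 10.60 with 2 µg 102S and 10.04, 10.03 and 10.76 with 0.2 µg 102S. The arrays with 2 µg MCC were the lowest, and the 2 groups with 102S overlapped. At 2 µg Hcst was lower with MCC by -1.39 ± 0.24 log2 (limma adjusted p = 0.00376), a call kept in all 21 settings, and at 0.2 µg by -0.57, from -1.10 to -0.05, which did not pass (limma adjusted p = 0.14). Tyrobp, the adaptor shared by NKG2D and other receptors of NK and myeloid cells, had means of 2.95, 3.22, 3.56 and 3.95 log2 in the order of Klrd1 and was above 4.47 on 1 array only, replicate 3 of 0.2 µg 102S (4.58).

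Of 29 other NK receptors and adaptors listed, 19 had a probe set of 1 symbol and 4 were tested. At 2 µg 1 was higher with MCC, 1 was lower and the median difference was -0.10 log2, and at 0.2 µg 2 were higher, 1 was lower and the median was -0.07. Cd160, a receptor for HVEM, moved opposite to Klrd1: it was higher with MCC by 1.66 ± 0.30 log2 at 2 µg and by 1.38 ± 0.30 at 0.2 µg (limma adjusted p = 0.00417 and 0.00851). The second call was lost with the 6 arrays alone (0.0517), and 1 of the 2 other tested probe sets of Cd160 was called the same way. Cd96, a receptor for CD155, was higher by 0.44 ± 0.11 and Crtam, an adhesion receptor of cytotoxic lymphocytes, lower by -0.78 ± 0.21 at 0.2 µg (limma adjusted p = 0.0225 and 0.0276). Both lost their call on replicates 2 and 3 alone, with the 6 arrays alone, and without MCC 0.2 µg replicate 2 or 102S 0.2 µg replicate 1 or 2, and Crtam also without MCC 0.2 µg replicate 3 (limma adjusted p up to 0.113 and 0.129). The means of Crtam were 4.38 and 4.40 log2 with 2 µg and 0.2 µg MCC, and 4.55 and 5.19 with 2 µg and 0.2 µg 102S. Both MCC means lay under 4.47 log2, where the array may no longer resolve lower amounts. Klrg1, a receptor of late effector cells, stayed between 4.0 and 4.62 log2 and was not tested.

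Of 16 ligands of the NK receptors listed, 6 were measured and 4 tested. H2-M3, a non-classical class I molecule, was lower with MCC at 2 µg (-0.42 ± 0.10 log2, limma adjusted p = 0.0166) and at 0.2 µg (-0.49 ± 0.10, limma adjusted p = 0.00488). The first call was lost without any one of the 3 arrays of 102S 2 µg, and both were lost on replicates 2 and 3 alone (limma adjusted p up to 0.14). Clec2i, a ligand of the Klrb1 receptor family, was higher with 2 µg than with 0.2 µg of 102S by 0.59 ± 0.14 (limma adjusted p = 0.0349), a call lost in 11 of 21 settings, among them without any one of the 6 arrays of 102S, MCC 2 µg replicate 2 or MCC 0.2 µg replicate 2 (limma adjusted p up to 0.176). H2-T23, which encodes Qa-1, the ligand of CD94 receptors, was not analysed here.

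**Figure D3:**
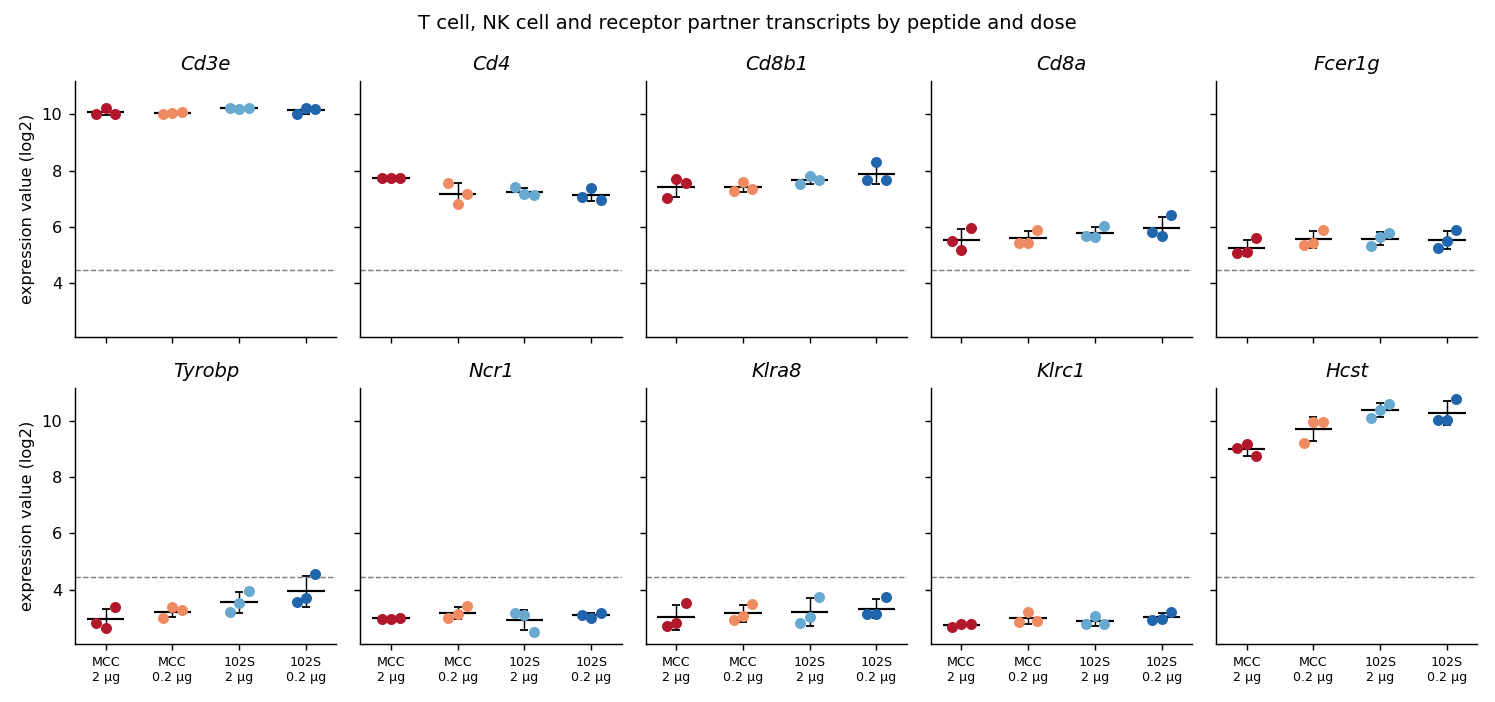
Log2 expression value of 10 T cell, NK cell and receptor partner transcripts on each of 12 arrays, by peptide and dose. Points are arrays, lines are means, bars are SD over 3 arrays, and the dashed line is the level of 4.47 log2 needed for testing. Ncr1, Klra8 and Klrc1 lie under the line on every array, while Hcst lies lowest with 2 µg MCC.

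Markers of other lymphocytes were set beside these results. NK cell markers were at or near the low end: Ncr1, which encodes the NK cell receptor NKp46, lay between 2.50 and 3.42 log2, Klra8 between 2.70 and 3.76 and Itga2 between 2.77 and 3.60. Tyrobp, listed as an NK marker too, had means of 2.95, 3.22, 3.56 and 3.95, which rose in the order of Klrd1. Its arrays ran from 2.64 to 3.38 with 2 µg MCC and from 3.58 to 4.58 with 0.2 µg 102S, without overlap. Of 5 NK markers measured only Fcer1g, an adaptor also of myeloid cells, was tested, and it passed in no comparison (at 2 µg -0.32, from -0.81 to 0.16; at 0.2 µg 0.02, from -0.46 to 0.51). The summed level of the 5 ranged from 5.97 to 6.50 log2 with 2 µg MCC, 6.16 to 6.63 with 0.2 µg MCC, 6.19 to 6.61 with 2 µg 102S and 6.22 to 6.82 with 0.2 µg 102S. These ranges overlapped, but Fcer1g, the brightest of the 5 with a mean of 5.49 log2, weighs most in the sum. The part of NK cells in the values of Klrd1, Gzma and Prf1 was not tested.

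The CD8 coreceptor transcripts Cd8b1 and, with its brighter probe set, Cd8a were above the testing level on all 12 arrays, although 5CC7 cells are CD4 T cells. The other probe set of Cd8a lay between 3.47 and 4.72 log2 and was not tested. Its means were 4.06 and 4.21 with 2 µg and 0.2 µg MCC, and 3.89 and 4.45 with 2 µg and 0.2 µg 102S. The means of Cd8b1 were 7.42 ± 0.34 (SD, n = 3), 7.41 ± 0.17, 7.66 ± 0.14 and 7.88 ± 0.37 log2 in the order of Klrd1. The summed level of both genes ranged from 7.46 to 7.96, 7.64 to 7.89, 7.87 to 8.08 and 8.01 to 8.52. These ranges overlap between neighbouring groups, while the range with 0.2 µg 102S lay above those of both doses of MCC. Both genes were highest with 0.2 µg 102S, where Klrd1 and Prf1 were highest too. Neither passed in any of the 5 comparisons. At 0.2 µg the difference of Cd8b1 was -0.47 log2, from -0.92 to -0.02 (limma adjusted p = 0.159), and that of Cd8a -0.38, from -0.91 to 0.16 (limma adjusted p = 0.356). The part of CD8 T cells in the values of Klrd1, Gzma and Prf1 was not tested.

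T cell transcripts were measured on every array. Cd3e, a chain of the receptor complex, lay between 10.01 and 10.23 log2, and Cd4 between 6.80 and 7.75. With its other tested probe set Cd4 lay between 3.88 and 5.95 and passed in no comparison. There 2 µg MCC lay above 2 µg 102S by 0.90 and above 0.2 µg MCC by 1.13, both without overlap (limma adjusted p = 0.122 for both). The peptide difference at 0.2 µg was -0.62 and the dose difference of 102S -0.39, both with overlap. All 7 measured CD4 T cell markers were tested: 0 passed at 2 µg, and at 0.2 µg 1 passed, Cd5, which was higher with MCC (1.11 ± 0.14, limma adjusted p = 0.000173). Markers of NKT cells (2 measured, 1 tested), B cells (4 and 1), monocytes and macrophages (5 and 2), dendritic cells (4 and 1) and gamma-delta T cells (1 and 1) gave 0 calls at 2 µg. At 0.2 µg Cxcr6, a chemokine receptor of NKT and effector T cells, was higher with MCC by 2.13 ± 0.37 log2 (limma adjusted p = 0.00205), as was the B cell gene Cd79b by 1.26 ± 0.33 (limma adjusted p = 0.0227, lost on replicates 2 and 3 alone, with the 6 arrays alone, and without MCC 0.2 µg replicate 2 or 3 or 102S 0.2 µg replicate 1 or 2, up to 0.105).

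The 7 other granzymes measured had means under the testing level, as Gzmb and Gzmk did, and were not tested. Their arrays lay low throughout, Gzmc between 2.79 and 3.47 log2 and Gzmm between 3.87 and 4.83, and the summed level of the 7 overlapped between all 4 groups. Of 18 measured genes that pack and release granules, 17 reached the testing level. Srgn, the proteoglycan that binds granzymes, lay between 11.21 and 11.69 log2, Ctsc, the protease that activates them, between 8.76 and 9.52, and Nkg7, a granule membrane protein, between 5.80 and 7.09. None of these 3 passed in any comparison of the fit without the replicate block. Between the doses of MCC the arrays of each did not overlap. At 2 µg Srgn and Ctsc were higher and Nkg7 was lower than at 0.2 µg. Srgn read 11.68, 11.62 and 11.49 log2 with 2 µg MCC and 11.45, 11.32 and 11.21 with 0.2 µg MCC.

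Of 17 tested genes of granule packing and release, 1 was higher and 3 lower with MCC at 2 µg, and 2 were higher and 2 lower at 0.2 µg, with medians of 0.07 and 0.16 log2. Cst7, which encodes cystatin F, an inhibitor of the proteases that activate granzymes, was higher with MCC at both doses (0.81 ± 0.15 and 1.46 ± 0.15, limma adjusted p = 0.0051 and 3.82e-05). Sytl2, which helps granules dock at the membrane, was higher at 0.2 µg by 1.42 ± 0.13 (limma adjusted p = 1.51e-05). Lamp1, a membrane protein of lytic granules, was lower at 2 µg by -0.66 ± 0.09 and at 0.2 µg by -0.45 ± 0.09 (limma adjusted p = 0.000616 and 0.00397). Ctsw, a cathepsin of cytotoxic lymphocytes, was 6.80, 6.21 and 6.19 log2 with 2 µg MCC and 7.88, 7.78 and 7.91 with 0.2 µg MCC. It was lower at 2 µg of MCC than at 0.2 µg by -1.46 ± 0.17 (limma adjusted p = 0.00158) and lower than with 2 µg 102S by -0.93 ± 0.17 (limma adjusted p = 0.00537), and both calls held in all 21 settings. The calls of Cst7 at 2 µg and Lamp1 at 0.2 µg were lost on replicates 2 and 3 alone (limma adjusted p = 0.058 and 0.0787).

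**Figure D4:**
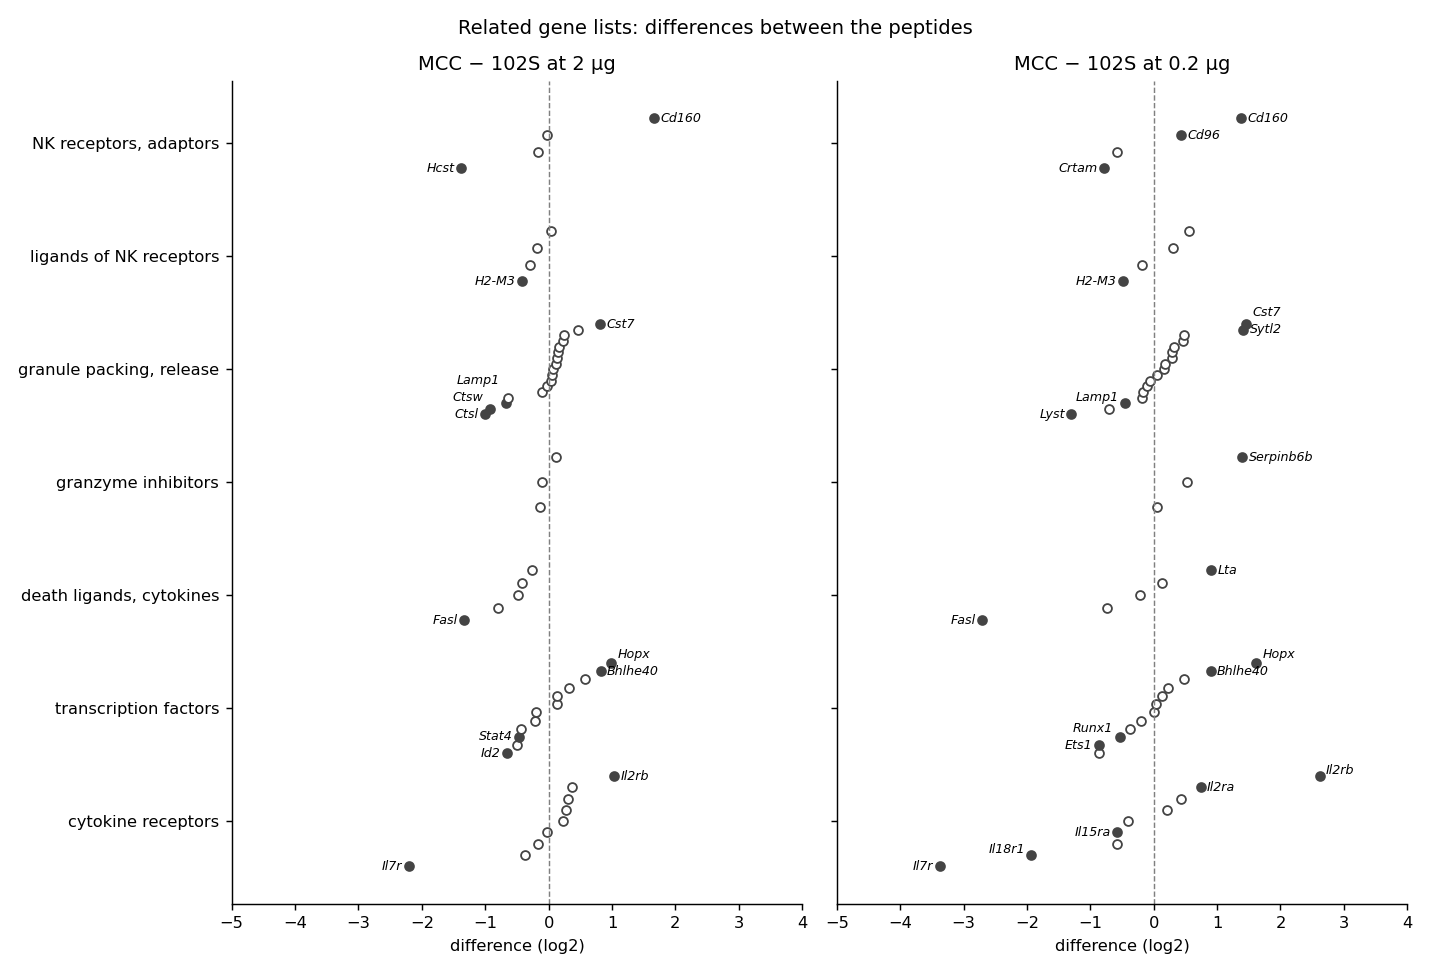
MCC minus 102S differences on the log2 scale (horizontal axis) of the tested genes in 7 related lists (vertical axis), at 2 µg on the left and 0.2 µg on the right. Each point is 1 gene, and filled, named points passed at a limma adjusted p under 0.05. Filled points lie on both sides of 0 in most lists. Ctsl, Lyst, Stat4 and Runx1 are named here because few genes passed, after their values were seen.

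Fasl, the other main means by which killer cells induce death, was low with MCC. Its level was 4.87, 4.36 and 4.11 log2 with 2 µg MCC, 3.39, 2.94 and 3.58 with 0.2 µg MCC, 6.18, 5.50 and 5.66 with 2 µg 102S and 6.23, 5.90 and 5.90 with 0.2 µg 102S. Every 102S array lay above every MCC array. The differences were -1.33 ± 0.25 at 2 µg and -2.71 ± 0.25 at 0.2 µg (limma adjusted p = 0.00526 and 1.54e-05), and both held in all 20 settings. Both MCC means lay under 4.47 log2, so no fold is given. A second probe set of Fasl, with a mean of 3.99 log2, was not tested. Its group means were 3.94, 3.63, 3.98 and 4.40 in the same order. With it the arrays of the peptides overlapped at 2 µg but not at 0.2 µg. Unlike Klrd1, Fasl was lower with 0.2 µg than with 2 µg of MCC, a dose difference of 1.14 ± 0.25 (limma adjusted p = 0.04) that was lost in 11 of 20 settings, among them on replicates 2 and 3 alone and without MCC 2 µg replicate 1 or 2, MCC 0.2 µg replicate 2 or 3, 102S 2 µg replicate 2 or 3 or 102S 0.2 µg replicate 1 or 2 (up to 0.152). Lta, which encodes lymphotoxin, was higher with MCC at 0.2 µg by 0.90 ± 0.15 (limma adjusted p = 0.00172). Ifng lay between 2.75 and 3.56 log2 and was not tested. Serpinb6b, 1 of 3 tested granzyme inhibitors, was higher with MCC at 0.2 µg by 1.4 ± 0.18 (limma adjusted p = 0.000265), and 0 of the 3 passed at 2 µg.

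Of 12 tested transcription factors of the cytotoxic programme, 2 were higher and 2 lower with MCC at each dose, with medians of -0.03 and 0.02 log2. Tbx21 (2.81 to 3.86) and Eomes (3.31 to 4.19), which encode the T-box factors that drive killer genes, lay under the testing level on every array. Runx3, which binds the Runx core shown above, lay between 4.49 and 5.16, and Zbtb7b, the factor of the CD4 fate, between 6.56 and 7.05, and neither passed in any comparison. Hopx, a small homeodomain protein of effector T cells, was higher with MCC at 2 µg by 0.99 ± 0.20 and at 0.2 µg by 1.62 ± 0.20 (limma adjusted p = 0.0084 and 0.000165). Bhlhe40 was higher at both doses too (0.82 ± 0.24 and 0.90 ± 0.24, limma adjusted p = 0.0468 and 0.0252), and these calls were lost in 11 and 5 of 20 settings, both on replicates 2 and 3 alone (0.203 and 0.108), the first without any one array of MCC 2 µg or 102S 2 µg or 102S 0.2 µg replicate 1 or 2, and the second without MCC 0.2 µg replicate 2 or 102S 0.2 µg replicate 1 or 2 (up to 0.203). Id2 was lower at 2 µg by -0.66 ± 0.17 (limma adjusted p = 0.0256, lost on replicates 2 and 3 alone and without MCC 2 µg replicate 3 or any array of 102S 2 µg, up to 0.104), and Ets1 was lower at 0.2 µg by -0.87 ± 0.22 (limma adjusted p = 0.0219, lost without MCC 0.2 µg replicate 2 or 3 or 102S 0.2 µg replicate 1 or 2, up to 0.0947; 0 of its 3 other tested probe sets passed).

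Of 9 tested receptors for cytokines that drive granzyme expression, 1 was higher and 1 lower with MCC at 2 µg, and 2 were higher and 3 lower at 0.2 µg. Il2rb, the β chain shared by the receptors for interleukin 2 and 15, ran against Klrd1: its level was 8.08, 8.15 and 7.94 log2 with 2 µg MCC, 8.15, 7.88 and 7.33 with 0.2 µg MCC, 7.07, 7.04 and 6.95 with 2 µg 102S and 5.42, 4.97 and 5.11 with 0.2 µg 102S. It was higher with MCC by 1.03 ± 0.19 at 2 µg and by 2.62 ± 0.19 at 0.2 µg (limma adjusted p = 0.00577 and 3.39e-06), and both calls held in all 21 settings, and the other tested probe set of Il2rb was called the same way at both doses. Il7r, the receptor of resting T cells for interleukin 7, was lower with MCC by -2.21 ± 0.23 and -3.38 ± 0.23 (limma adjusted p = 0.000179 and 1.93e-06). Il18r1 was lower at 0.2 µg by -1.94 ± 0.15 (limma adjusted p = 4.74e-06). Il2ra was higher by 0.74 ± 0.21 and Il15ra lower by -0.57 ± 0.16 at 0.2 µg (limma adjusted p = 0.0374 and 0.0333), and these last 2 were lost in 10 and 9 of 20 settings, both on replicates 2 and 3 alone and without MCC 0.2 µg replicate 2 or 3 or 102S 0.2 µg replicate 1 or 2 (up to 0.148 and 0.304). Il2ra was lost too without any one array of 102S 2 µg, and Il15ra without MCC 0.2 µg replicate 1 or 102S 2 µg replicate 2.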

How the data were processed

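The deposited table gave 1 log2 value per probe set and array, as the authors made it, for 12 Affymetrix arrays in 4 groups of 3. The submitters' processing notes name GCOS 1.4. Probe summarisation, background correction and scaling are not given in the sources used here, and the log2 scale was read from the values, 1.86 to 14.7. Arrays carry no read depth, and their number limits the precision (median SE of a difference 0.18 log2).

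Values were used as deposited and fitted with limma 3.58.1 in R 4.3.3 (4 group means, intensity trend, 8 residual degrees of freedom). The 64 control probe sets, and those with a mean under the 40th percentile (4.47 log2), were not tested, which left 13576. Tests were 2-sided with Benjamini-Hochberg adjustment over these, called under 0.05. Differences carry SE and group means SD. The interaction subtracts the peptide difference at 0.2 µg from that at 2 µg. A summed level is the log2 of the linear values of a list added up. For genes with several probe sets the one of highest mean is given. The fit was tested on simulated data. Members and lists were chosen with earlier results of these data known. Named are the 6 genes, 25 key genes where measured, up to 4 called genes of smallest p per list, and the 3 genes most correlated with each member. Klrb1c, Klre1 and H2-T23 were not analysed here.

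Deviations from group means of same-numbered arrays correlated between 0.194 and 0.601 across peptides at 2 µg and between 0.202 and 0.562 across doses of MCC, so the numbers were taken to pair samples there. At 0.2 µg the correlations ran from -0.287 to 0.793 and across doses of 102S from -0.0645 to 0.797, so they were not. With the replicate block 2485 probe sets were called at 2 µg (1393 without) and 1562 between doses of MCC (239 without). Alternatives were quantile normalization, median centring, no filter, a 60th percentile filter, no trend, the arrays compared alone, a replicate block, replicates 2 and 3 only, a β-actin covariate, another probe set, and leaving out each array.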

Additional observations from a re-analysis of the deposited data

Results flagged for a closer look

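Each gene named beside the 6 was taken by its probe set of highest mean. Of these, 6 had a peptide effect that differed between the doses by the interaction test (limma, Benjamini-Hochberg). The interaction, the peptide difference at 2 µg less that at 0.2 µg, was 2.21 ± 0.21 log2 for Il18r1 (adjusted p = 0.000399) and -1.33 ± 0.21 for Lta (adjusted p = 0.0117), and both held in all 20 settings. It was -1.59 ± 0.27 for Il2rb (adjusted p = 0.0179, lost in 6 of 20 settings, up to 0.0674; its other tested probe set gave 0.22 ± 0.46, adjusted p = 0.898), -1.17 ± 0.18 for Sytl2 (adjusted p = 0.0095, lost in 1 of 20, replicates 2 and 3 only, 0.0976), -1.21 ± 0.25 for Ctsw (adjusted p = 0.0443, lost in 12 of 20, up to 0.136) and -1.29 ± 0.26 for Serpinb6b (adjusted p = 0.0431, lost in 12 of 20, up to 0.151). The losses of Il2rb, Ctsw and Serpinb6b came from leaving out single arrays in 5, 10 and 10 cases. None of the 6 cytotoxic and NK receptor genes was among them. Cxcr6 did not pass with its brighter probe set (-1.43), but its other tested probe set did (-2.65 ± 0.26, limma adjusted p = 0.000441).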

How the results depend on the processing

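For Klrd1, Gzma and Prf1 the direction held in every setting run, except for the dose effect of MCC on Prf1, which turned to 0.0521 log2 without MCC 2 µg replicate 2 and to 0.0290 with the other probe set. Leaving out 1 array gave ranges of -2.03 to -1.31 (Klrd1, MCC dose), -1.39 to -1.19 (Klrd1, 102S dose), -1.50 to -1.10 (Gzma, 2 µg), -1.12 to -0.38 (Gzma, 0.2 µg), -1.30 to -0.57 (Gzma, MCC dose), -0.31 to 0.0521 (Prf1, MCC dose) and -1.10 to -0.74 (Prf1, 102S dose). With the 6 arrays compared alone, Klrd1 gave -1.63 (limma adjusted p = 0.103) between doses of MCC and -1.30 (0.011) between doses of 102S, and Prf1 -0.93 (0.0627) between doses of 102S. With the replicate block Klrd1 gave -1.30 (0.0134) between doses of 102S and Gzma -1.01 (0.0242) between doses of MCC, and no other call of the 6 genes changed. With the β-actin covariate Klrd1 gave -1.29 (0.0126) between doses of 102S and Gzma -0.85 (0.0117) at 0.2 µg, -0.42 (0.443) between doses of MCC and -0.13 (0.919) for the interaction. On replicates 2 and 3, Gzma gave -1.23 (0.0695) at 2 µg and Prf1 -0.72 (0.382) between doses of 102S. Without a filter Prf1 gave -0.93 (0.0514) there. The other Prf1 probe set gave -0.18 (0.47) at 0.2 µg and -0.15 (0.801) between doses of 102S. Probe sets called were 1393 at 2 µg, 1939 at 0.2 µg, 239 between doses of MCC, 429 between doses of 102S and 104 for the interaction. They became 2485, 3494, 1562, 828 and 321 with the replicate block and 3335, 3643, 541, 1421 and 285 with the β-actin covariate. Replicates 2 and 3 gave 772 at 2 µg, 592 between doses of MCC and 269 between doses of 102S, and the 6 arrays alone gave 1070 at 0.2 µg and 74 between doses of MCC. Leaving out 1 array gave 700 to 1602, 1051 to 2786, 61 to 1208, 210 to 500 and 62 to 142. The number of arrays and the low signal of Klrk1, Gzmb, Gzmk and the other granzymes limit what can be read. The causes of these changes were not tested.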

Other observations

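Prdm1, which encodes Blimp-1, a transcriptional repressor expressed in effector T cells, fell outside the rule for named genes and is given after its values were seen. Its means were 3.32 ± 0.21 (SD, n = 3), 3.77 ± 0.12, 4.17 ± 0.25 and 5.22 ± 0.40 log2 from 2 µg MCC over 0.2 µg MCC and 2 µg 102S to 0.2 µg 102S, the order of groups seen for Klrd1. Its mean over the 12 arrays was too low for testing.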
